A study of Rattus norvegicus with 16 samples.

Results

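The transcripts of 10 genes of striated muscle were followed in RNA from rat epididymal white adipose tissue, the fat depot attached to the epididymis. They were Acta1, Myh4, Myh1, Myh7, Mylpf, Tnnt3, Tnnc2, Actn3, Atp2a1 and Mb, chosen by name, and each was read by the 1 probe whose RefSeq accession belongs to that gene. That made 10 probes of 30367 on the array, or 10 genes of the 15168 that the probes name. All 10 probes were spotted in duplicate. Of the 10 genes, 8 passed the filter on dim probes, which kept the 21808 probes seen well above background in 4 or more of the 8 animals of either group. Myh4 and Myh1 did not pass.

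All animals were male pups, 30 days old and fed ad libitum at death. The HFT group came from dams that ate a high-fat diet during pregnancy and lactation and, over the same period, received a daily oral dose of GSPE (grape seed procyanidin extract, 25 mg per kg of body weight) in low-fat condensed milk. The HF group came from dams on the same high-fat diet that received the milk alone. The pups of both groups went on eating their mothers' high-fat diet until death. Each group held 8 animals, and the total RNA of each animal was hybridised to its own 1-colour array. The labels do not say which pups shared a dam, so the p-values measure the spread between animals as sampled.

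Skeletal muscle contracts when myosin heads pull on actin filaments, with calcium acting through the troponin complex on the thin filament. Fast and slow fibres use different genes for the same parts: fast fibres carry Myh1, Myh2 or Myh4 myosin with the troponins Tnnc2 and Tnnt3, and slow fibres carry Myh7 myosin with Tnnc1 and Tnnt1. Satellite cells, the resident stem cells of muscle fibres, express Pax7, and the myogenic factors Myod1 and Myf6 belong to the same lineage. Several contractile genes are also transcribed outside skeletal muscle, Myh7 and Myh6 in heart being the best known.

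Values below are log2 spot signals minus the 75th percentile of the same array, so that 0 is the 75th percentile of that array's spots and 1 unit is a doubling of signal. They are set side by side only within a gene, since the signals of different probes have no common scale. Precision is limited by the number of arrays. On the 16 arrays the 75th percentile lay at signals of 753 to 1366, no spot was saturated, and 68.3% to 73.5% of probes were well above background. Adipocyte genes were well above background on all arrays, with Adipoq, the gene of adiponectin, at 6.31 to 7.23 and Fabp4, the fatty acid carrier of adipocytes, at 6.23 to 7.38. In bulk RNA, fewer cells of a type and less RNA per cell cannot be told apart.

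Of the 16 fat samples, 7 held high signal of another tissue. An array was called high for a tissue when the mean of that tissue's marker genes lay over 3 log2 units above the median array. Genes of the epididymal epithelium were high on HFT 23 (3.13), HFT 28 (3.59) and HF 8 (3.50). That score rested on 3 measured genes of 10: Lcn5, an epididymal lipocalin, and Spink8 were above the 9 remaining arrays on all 3, Adam7 was not, and Spink8 was also above them on the other 4 high arrays. Genes of the urothelium, the lining of the urinary tract, were high on HFT 22 (4.39), HFT 24 (5.38) and HF 35 (5.55). That score rested on 5 measured genes of 7. Upk1a, Upk1b, Upk3a and Krt5 were above the 9 remaining arrays on all 3, and Trp63 was not. Smooth muscle genes were high on HF 9 (4.38). The values of these arrays are given one by one below, and the comparison of HFT with HF also without them. The other 9 arrays, 4 of HFT and 5 of HF, stayed below that limit for all 3 tissues, though not all at the same level: HF 11 had a smooth muscle score of 0.81. The mean of the 9 measured adipocyte genes was lower on each of the 7 high arrays than on any of the 9, at -0.22 on HFT 22, -0.23 on HFT 23, -0.32 on HFT 24, -0.72 on HFT 28, -0.57 on HF 8, -0.60 on HF 9 and -0.38 on HF 35. On the 9 arrays it lay between -0.0042 and 0.23. The part of this lower adipocyte signal in the levels of the muscle genes was not tested.

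The defining markers of skeletal muscle were present only in part. Myh4, the myosin of the fastest fibres, was well above background on 1 of 16 arrays (HFT 22), and there its duplicate spots read -8.86 and -6.34. Myh1, the myosin of fast intermediate fibres, was well above background on none. Myh2, the third fast myosin, was so on 1. Pax7, Myod1, Myf6 and Cdh15, all markers of satellite cells or of the myogenic lineage, were well above background on 0 of 16. The other 3 genes of that list of 7, Myf5, Myog and Chrna1, were well above background on all 16 arrays. Myot and Klhl41, which encode sarcomere proteins, and Xirp2 were likewise never well above background, while 16 of the 25 other skeletal muscle genes with a probe passed the filter, Ckm among them. Because the fast myosins were nearly all at background, they are called only the 10 genes below. Tnnc2, Acta1 and Myh7 had the widest ranges across animals among the 10.

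Promoter sequence was available for 9 of the 10 genes, as the 250 bases before the start site in RefSeq (rat assembly GRCr8). Tnnt3 had no match. The promoters of 3 genes are shown because Acta1 and Tnnc2 had the widest ranges across animals and Myh4 was at background. Capitals mark a CArG box (the serum response factor motif), the A- and T-rich MEF2 motif and the box TATAAA, searched on both strands.
Acta1: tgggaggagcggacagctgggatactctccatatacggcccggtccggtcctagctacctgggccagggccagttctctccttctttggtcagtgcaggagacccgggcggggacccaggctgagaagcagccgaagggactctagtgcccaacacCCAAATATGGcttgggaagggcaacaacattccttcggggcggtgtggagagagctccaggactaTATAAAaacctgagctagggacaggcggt
Myh4: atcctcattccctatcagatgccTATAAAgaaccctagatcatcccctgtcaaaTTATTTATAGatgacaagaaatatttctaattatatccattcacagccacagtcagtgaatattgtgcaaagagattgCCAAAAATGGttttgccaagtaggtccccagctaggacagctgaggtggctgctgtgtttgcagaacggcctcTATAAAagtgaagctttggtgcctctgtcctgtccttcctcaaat
Tnnc2: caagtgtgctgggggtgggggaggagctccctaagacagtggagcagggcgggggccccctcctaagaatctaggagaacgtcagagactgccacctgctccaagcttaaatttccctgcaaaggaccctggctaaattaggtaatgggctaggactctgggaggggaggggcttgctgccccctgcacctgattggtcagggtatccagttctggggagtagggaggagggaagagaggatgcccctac
The Acta1 promoter lies at chr19:68784195-68784444 on the minus strand, that of Myh4 at chr10:52421898-52422147 on the plus strand and that of Tnnc2 at chr3:173935340-173935589 on the minus strand. A CArG box was found in Acta1, starting 94 bases before the start site, and in Myh4, starting 118 bases before it. Of 33469 promoters of the same length, 1.5% held one. The MEF2 motif was found in Myh4 and in Myh1, and in 2.96% of all promoters, and in both genes a TATAAA match overlapped it. TATAAA occurred in 4 of the 9 promoters (Acta1, Myh4, Myh1 and Mb) and in 12.9% of all. The E-box CANNTG, which is not capitalised, occurred in 7 of the 9 and in 65.5% of all. The Tnnc2 promoter held no CArG box, MEF2 motif or TATAAA in this window, and a match is a description of letters, not of a bound site.

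**Figure D1:**
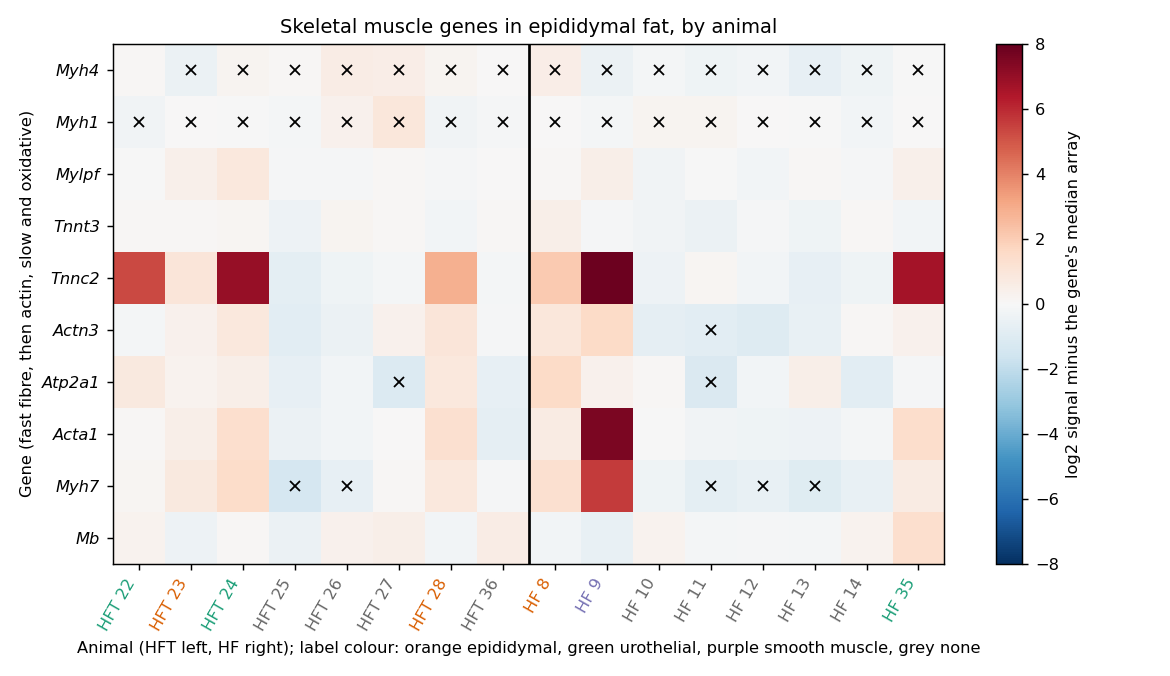
Log2 signal of the 10 genes (rows) on the 16 arrays (columns, HFT animals left of the line and HF animals right of it), each relative to that gene's median array, with crosses where the probe was not well above background. Tnnc2 is dark red on HFT 22, HFT 24, HF 9 and HF 35, Acta1 and Myh7 are dark red on HF 9, and Myh1 is crossed on all 16 arrays.

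Among the thin filament genes, Acta1, the actin of skeletal muscle, was well above background on all 16 arrays. Its log2 signal was -4.58 at the lowest, -3.83 at the median and -2.52 at the highest HFT animal, against -4.31, -3.95 and 3.67 among HF animals. The highest was HF 9, which lay 7.82 units above the median of the 9 arrays high for no other tissue, a 226-fold difference in signal. Those 9 arrays were tightly grouped, from -4.58 to -3.86. All 7 arrays high for another tissue lay above that range, at -3.81 (HFT 22), -3.39 (HFT 23), -2.52 (HFT 24), -2.57 (HFT 28), -3.20 (HF 8), 3.67 (HF 9) and -2.49 (HF 35). HFT 22 cleared it by only 0.042 units, and its duplicate spots read -4.44 and -3.19, so that 1 of them lay inside the range.

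Tnnc2, the calcium-binding troponin C of fast fibres, varied most of the 10 genes, over 8.61 log2 units. Among HFT animals it read -4.48 at the lowest, -3.26 at the median and 3.30 at the highest, against -4.31, -3.74 and 4.13 among HF animals. The 9 arrays below the limit for the other tissues read -4.48 to -3.56. Above them stood HFT 23 (-2.70), HFT 28 (-0.85) and HF 8 (-1.56), the 3 arrays high for epididymal genes. Much higher were HFT 22 (1.56), HFT 24 (3.30) and HF 35 (2.95), the 3 arrays high for urothelial genes, and HF 9 (4.13). The lowest of the 3 urothelial arrays lay 5.12 units above the highest of the 9, and duplicate spots of Tnnc2 differed by at most 0.49 units on any array.

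Tnnt3, the tropomyosin-binding troponin T of fast fibres, was nearly level across animals although Tnnc2 was not. It read -1.63, -1.12 and -0.99 (lowest, median, highest) in HFT animals, against -1.71, -1.37 and -0.74 in HF animals. HF 8 alone exceeded the 9 arrays, which ran from -1.71 to -0.99. The whole range of Tnnt3 over 16 arrays was 0.97 units.

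The slow and cardiac myosin Myh7 was well above background on 11 of 16 arrays, 6 of HFT and 5 of HF. Its log2 signal was -7.61 at the lowest, -6.10 at the median and -4.80 at the highest HFT animal, against -7.20, -6.69 and -0.65 in HF animals. Of the 9 arrays high for no other tissue only 4 were well above background, and they read -7.61 to -6.12 in all. The 7 other arrays were all well above background and all above that range. HF 9 again led, at -0.65, and the next highest was HFT 24 at -4.80. HFT 22, at -6.07, was the lowest of the 7 and cleared the range by 0.049 units.

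Among the other fast fibre genes the differences between animals were smaller. Mylpf, the regulatory light chain of fast myosin, ran over 1.13 units in all, from -5.11 to -4.13 in HFT and from -5.26 to -4.53 in HF. HFT 23, HFT 24, HF 9 and HF 35 lay above the 9 arrays, and HFT 24 was the highest. Actn3, the Z-disc actinin of fast fibres, read -6.38, -5.40 and -4.56 (lowest, median, highest) in HFT animals and -6.53, -5.77 and -3.97 in HF animals. HFT 24, HFT 28, HF 8 and HF 9 were above the 9 arrays in Actn3.

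Atp2a1, the calcium pump SERCA1 of fast fibres, read -6.42, -5.30 and -4.47 in HFT animals and -6.48, -5.31 and -3.77 in HF animals (lowest, median, highest). HFT 22, HFT 28 and HF 8 lay above the 9 arrays, whereas HF 9, at -4.99, did not. Mb, the oxygen store myoglobin, behaved in another way. It read -1.41, -0.78 and -0.36 in HFT animals and -1.53, -1.06 and 0.38 in HF animals. HF 35 was the highest, HF 9 was the lowest of all 16, below the range of the 9 arrays, and the other 5 high arrays lay within that range.

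Counted over the 8 genes that passed the filter, 3 (Acta1, Myh7 and Tnnc2) lay above the 9 arrays on all 7 arrays high for another tissue. Over all 21808 probes this held for 277, or 1.27%. On the 3 epididymal arrays the count was 3 of 8 genes, against 8.82% of all probes. On the 3 urothelial arrays it was 3 of 8, against 3.55%, and on HF 9 it was 5 of 8, against 20.3%. By animal, the genes above the 9 arrays numbered 4 of 8 on HFT 22 (11.4% of all probes), 4 on HFT 23 (13.9%), 5 on HFT 24 (15.9%), 5 on HFT 28 (14.9%), 6 on HF 8 (23.8%), 5 on HF 9 (20.3%) and 5 on HF 35 (16.5%). The filter kept only genes seen on at least 4 arrays of a group, so these counts leave out Myh4 and Myh1. Acta1 and Tnnc2 were well above background on all 16 arrays. Myh7 was so on all 7 high arrays but on only 4 of the 9. It passed the filter only through the high arrays, so its place among the 3 is not separate evidence. Myh4 exceeded the 9 arrays on 0 of the 7 arrays, and Myh1 on 0.

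**Figure D2:**
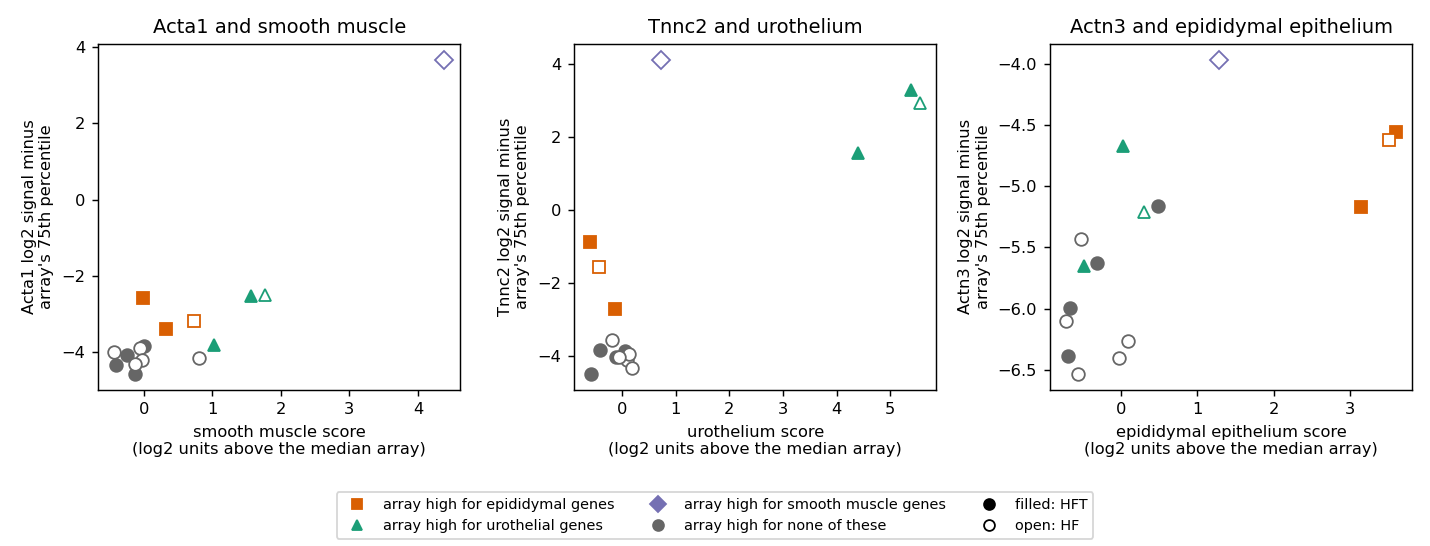
Log2 signal of Acta1, Tnnc2 and Actn3 (vertical axes) against the smooth muscle, urothelium and epididymal epithelium scores of the same array (horizontal axes, log2 units above the median array), 1 point for each animal. HF 9 stands alone at a smooth muscle score of 4.38 with Acta1 at 3.67, and in the middle panel HFT 22, HFT 24 and HF 35 stand at urothelium scores of 4.39 to 5.55 with Tnnc2 at 1.56 to 3.30, while HF 9 is as high in Tnnc2 at a urothelium score of 0.73.

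Other genes moved with these arrays, and their part in the levels of the 10 genes was not tested. On HF 9 all 9 measured smooth muscle genes were above the 9 arrays. The mean of these same genes set the class of HF 9, so that count is not a further result. Among the 9 genes were Actg2 (7.89), the enteric smooth muscle actin, and Myh11 (6.22), the smooth muscle myosin. On the urothelial arrays 6 of the 9 smooth muscle genes were above (3.55% of all probes), and on the epididymal arrays 0 of 9 (8.82% of all probes). The smooth muscle score was 1.03 on HFT 22, 1.56 on HFT 24 and 1.78 on HF 35, against 0.32 on HFT 23, -0.01 on HFT 28 and 0.73 on HF 8. On the 9 arrays the same score lay between -0.43 and 0.81. The defining urothelial genes Upk2 and Upk3a, which encode uroplakins of the bladder surface, read 1.78 and 2.95 on HFT 22, 3.29 and 4.69 on HFT 24, and 2.72 and 4.69 on HF 35. On HF 9 they read -8.37 and -6.11, within the range of the 9 arrays, but Upk1a and the basal keratin Krt5 (2 of the 5 measured urothelial genes) lay above it, and the urothelium score of HF 9 was 0.73, against -0.58 to 0.18 on the 9.

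Other genes of skeletal muscle followed the same arrays only in part. The wider skeletal muscle list held 16 measured genes outside the 10, of 31 named. Of these, 5 were above the 9 arrays on all 3 epididymal arrays (Myom2, Des, Casq1, Pvalb and Myoz1), against 8.82% of all probes. On all 3 urothelial arrays 6 were (Ckm, Cacna1s, Tpm1, Tpm2, Des and Casq1), against 3.55%, and on HF 9 it was 11, against 20.3%. Myl1, Tnni2, Casq1, Pvalb and Myoz1 of this list are also counted among the fast fibre genes below. Casq1, the calsequestrin of fast fibres, and Des, the muscle intermediate filament, were the ones named on all 3 kinds of array. Ckm, the muscle creatine kinase, read 1.76 on HF 9, -1.81 on HFT 24 and -1.86 on HF 35, and no higher than -3.57 on any other array. Tpm2, the beta tropomyosin that smooth muscle also makes, read 6.15 on HF 9.

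Some genes of the wider skeletal muscle list were well above background in too few animals to pass the filter. Trim63, Nrap and Smpx are given as examples of high signal on few arrays, not as a count. Actn2 and Sln did not pass either, and their values are not given here. Trim63, the ubiquitin ligase MuRF1, read -5.39 on HFT 23, -4.73 on HFT 28 and -5.17 on HF 8, the epididymal arrays, and at most -6.89 elsewhere. Nrap, an anchoring protein of striated muscle, read -6.12 on HFT 28 and -5.52 on HF 8 and at most -7.77 elsewhere. Smpx, a small muscle protein, read -4.08 on HF 9 and at most -8.28 on the other 15 arrays. Heart genes took part only in some members. Of 8 listed, 5 were measured and 2 were never well above background. On all 3 epididymal arrays 3 of 5 (Myh6, Tnnt2 and Tnni3) were above the 9 arrays, against 8.82% of all probes. On all 3 urothelial arrays 2 of 5 (Myh6 and Tnnt2) were, against 3.55%. On HF 9 it was 3 of 5, against 20.3%. Actc1 and Ryr2 were not among them. Myh6, the atrial myosin that lies next to Myh7 on chromosome 15 with 0 protein-coding genes between them, read 1.44 on HF 9 and -3.07 on HFT 24. Myh6 and Myh7 are near-identical paralogs, and cross-hybridisation between their probes was not tested. Tnnt2, the troponin T of heart, read 1.89 on HFT 22, 3.24 on HFT 24 and 3.86 on HF 35, against at most -0.87 on the other arrays. Of the 3 measured satellite cell and myogenic genes (Myf5, Myog and Chrna1), 0 were above the 9 arrays on any of the 3 kinds of array.

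Fast and slow fibre genes were set side by side, without a test between the lists. For each array, the score of a fibre type was the mean, over its measured genes, of the log2 signal minus that gene's median array. The fast list had 10 measured genes of 14 and the slow list 7 of 10. The fast score exceeded the 9 arrays (-0.52 to -0.07) on all 7 high arrays: 0.58 on HFT 22, 0.54 on HFT 23, 1.34 on HFT 24, 0.94 on HFT 28, 1.02 on HF 8, 1.91 on HF 9 and 0.995 on HF 35. The slow score exceeded the 9 arrays (-0.30 to 0.13) clearly only on HF 9, at 1.35, and it read 0.16 on HFT 22 and 0.37 on HFT 24. On the remaining 4 it lay within that range, from -0.29 to 0.10. Fast minus slow was 0.42 to 1.31 on the 7 arrays, against -0.38 to 0.12 on the 9.

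**Figure D3:**
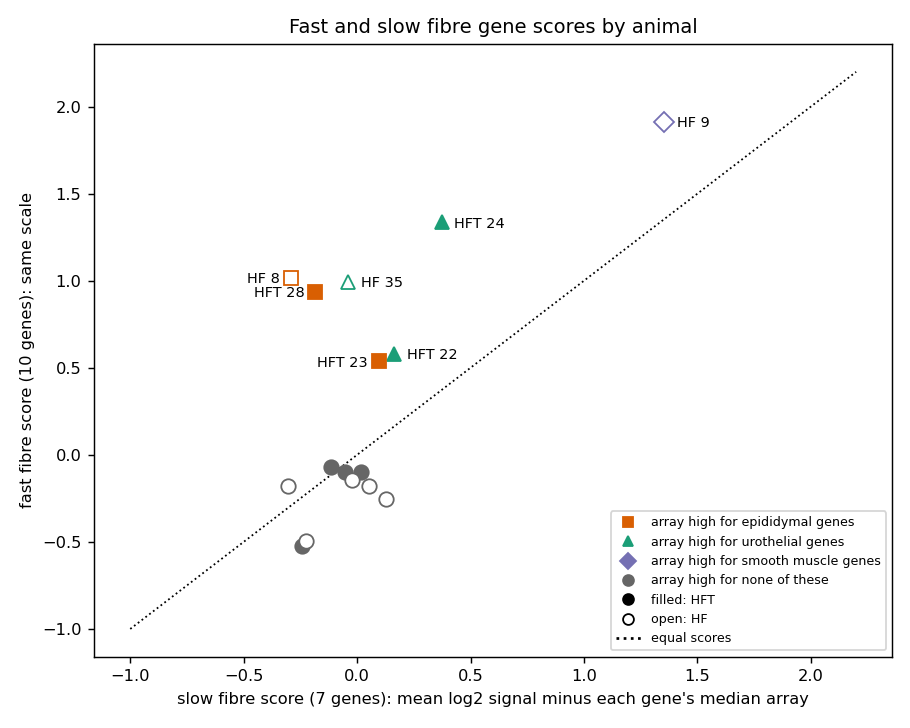
Fast fibre score (vertical, 10 genes) against slow fibre score (horizontal, 7 genes) of each animal, as mean log2 signal relative to each gene's median array, with the dotted line at equal scores. The 7 animals high for another tissue all lie above the line, HF 9 farthest to the right at a slow score of 1.35, and the 9 others cluster around 0.

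These scores rested partly on single genes. Without Tnnc2, the fast score was 0.06 on HFT 22 and 0.37 on HF 35, and 1.26 on HF 9. Without Myh7, the slow score of HF 9 was 0.65, with Casq2, the calsequestrin of slow fibres and heart, at 1.63 there and below 0 on the other arrays. With both genes left out, fast minus slow was 0.50 to 1.45 on 6 of the high arrays and -0.10 on HFT 22, where it lay inside the range of the 9 (-0.52 to 0.0070). Of the fast genes, 4 of 10 (Tnnc2, Casq1, Pvalb and Myoz1) were above the 9 arrays on all epididymal arrays, 2 of 10 (Tnnc2 and Casq1) on all urothelial arrays and 6 of 10 on HF 9. Of the slow genes, 1 of 7 (Myh7) was above on all epididymal arrays, 1 of 7 (Myh7) on all urothelial arrays and 2 of 7 (Myh7 and Casq2) on HF 9. The slow troponins Tnnc1 and Tnnt1 and the slow tropomyosin Tpm3 were not among them. Over all probes the shares were 8.82% on the epididymal arrays, 3.55% on the urothelial arrays and 20.3% on HF 9. The slow shares rest on 1 or 2 genes, and Myh7 passed the filter only through the high arrays. The mean of fast minus slow differed between HFT and HF by 0.066 units, which was less than the SD of 0.58 between animals.

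Because the animals fell into separate clusters, co-variation was examined only within the 9 arrays high for no other tissue. Of the 45 pairs of the 10 genes, 35 had a positive Pearson r, with a median r of 0.26. Myh4 and Myh1 were well above background on 0 of these 9 arrays, and 17 of the pairs involve them. Without those, 20 of 28 pairs were positive, with a median r of 0.21. By an exact permutation test over the 9 arrays (two-sided, Benjamini-Hochberg over 45 pairs), 0 pairs passed an adjusted p of 0.05, and 4 had an unadjusted p under 0.05. With normexp background correction 15 of the 45 passed and 22 had an unadjusted p under 0.05, with a median r of 0.64. In that setting the pairs without Myh4 and Myh1 were not counted apart. The count thus depends on how the background is treated. Without normexp correction the closest pair was Myh7 with Mb, at r = 0.89 and rho = 0.85 (exact permutation p = 0.0011, adjusted p = 0.051 for r and adjusted p = 0.137 for rho). Without the 2 arrays farthest from the median in Myh7 its r was 0.83. Tnnt3 with Mb followed at r = 0.82 and rho = 0.90 (exact permutation, adjusted p = 0.294 for r and adjusted p = 0.0913 for rho), with r = 0.69 without the 2 arrays farthest out in Tnnt3. Only 4 of the 9 arrays were well above background for Myh7, so the lower values of this pair are near the detection limit. Acta1, Myh7 and Tnnc2, which were high on the same 7 arrays, had pairwise r of 0.35 (Acta1 with Myh7), 0.20 (Acta1 with Tnnc2) and 0.59 (Myh7 with Tnnc2) within the 9.

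The 10 genes were also set against 6 tissue scores within the 9 arrays, which gave 60 pairs. None passed adjustment (smallest adjusted p = 0.406, exact permutation test), and 4 had an unadjusted p under 0.05. Of those, 2 concerned Tnnc2, with r = 0.81 and rho = 0.63 against the other skeletal muscle genes and r = 0.74 and rho = 0.65 against smooth muscle genes. Without the 2 arrays farthest from the median score, these r were 0.87 for the skeletal and 0.72 for the smooth muscle genes. Another set Myh7 against the epididymal epithelium score (r = 0.72, rho = 0.78), and without the 2 arrays farthest from the median score its r was 0.41, so that it rests on those arrays. The last pair involved Myh1, which was at background on all 9 arrays, and is not read.

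Over all 16 arrays, named genes outside the 10 and outside all marker lists were ranked by likeness to the mean of the 10. That mean was taken over centred values, so Tnnc2, Acta1 and Myh7, which had the widest ranges, weigh most in it. The 8 closest genes were Fbxl22 (r = 0.96), Rbm24 (0.96), Cpxm2 (0.95), Cap2 (0.94), Pcp4 (0.94), Ctxn1 (0.94), Tfap2b (0.93) and Hs3st3a1 (0.93). These are descriptions over 16 arrays that share the 7 high ones. Within the 9 other arrays the same r ran from 0.024 (Hs3st3a1) to 0.70 (Cpxm2). Fbxl22, an F-box protein of the sarcomere, read 3.88 on HF 9, 0.94 on HF 35 and 0.70 on HFT 24. Rbm24, a splicing regulator of striated muscle, read 0.47 on HF 9, -1.26 on HF 35 and -0.53 on HFT 24.

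Taken gene by gene, in a comparison added after the values were seen, the closest partners differed. Acta1 was most like Synm, the intermediate filament protein synemin (r = 0.99). Next came Slc16a3 (0.98), Ppp1r12a (0.97), Myl9, the smooth muscle light chain (0.96), and Tpbg (0.96). Within the 9 arrays r was 0.11 with Synm, 0.50 with Slc16a3, 0.77 with Ppp1r12a, -0.19 with Myl9 and -0.0021 with Tpbg. Myh7 was most like Myh6 (r = 0.98, and 0.80 within the 9). Tnnc2 was most like Pcp4 (0.97), followed by Krt15 (0.96), a keratin of basal epithelium. Next came Nrtn (0.95), Serinc2 (0.95) and Gata3, a transcription factor of urothelium (0.95). Within the 9 arrays, r of Tnnc2 was 0.81 with Pcp4, 0.024 with Krt15, 0.68 with Nrtn, 0.63 with Serinc2 and -0.41 with Gata3. Actn3 was most like Phlda2 (0.92), Atp2a1 like Ramp3 (0.86), Mylpf like Alox12 (0.82), Tnnt3 like Pik3c2b (0.84) and Mb like Afg3l2 (0.87). Within the 9 arrays these 5 r lay between 0.57 (Mylpf) and 0.89 (Atp2a1).

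The comparison that the study was designed for is HFT against HF. Of the 8 genes, 0 passed limma's moderated test (adjusted p under 0.05), and over all 21808 probes the share called was likewise 0 (0%). At an unadjusted p under 0.05 the limma test called 0 of the 8, against 515 of all probes (2.36%, with 1.13% higher and 1.23% lower in HFT). Each of the 10 genes overlapped between the groups, and 0 of the 21808 probes had groups that did not overlap (0%). The median difference over the 8 genes was -0.031 log2 units, against -0.016 over all probes, with 3 genes above 0 and 5 below. Its sign turned under 10 of 26 alternatives.

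**Figure D4:**
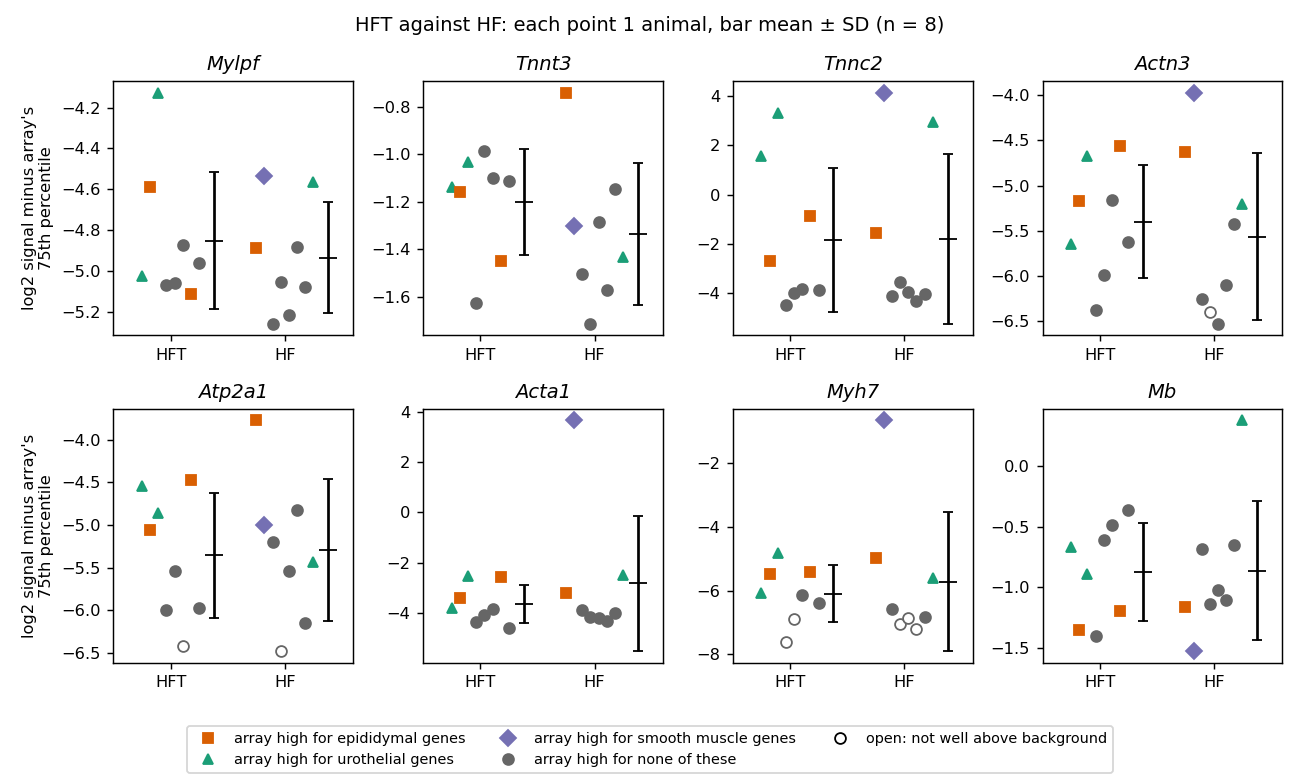
Log2 signal minus the array's 75th percentile for the 8 genes that passed the filter, 1 point for each animal, HFT left and HF right, with the mean ± SD of each group (n = 8) as a bar and symbols that show which other tissue's genes were high on that array. The groups overlap in all 8 panels, and HF 9 stands far above the other HF animals in Acta1 (3.67) and in Myh7 (-0.65).

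Acta1 averaged -3.65 ± 0.77 in HFT animals and -2.82 ± 2.69 in HF animals (SD, n = 8 each), a difference of -0.82 (SE 0.93, 95% interval -2.78 to 1.14). Without HF 9 the difference was 0.11. Tnnc2 averaged -1.86 ± 2.91 in HFT and -1.80 ± 3.42 in HF, a difference of -0.05 (SE 1.48, 95% interval -3.20 to 3.09), and 0.79 without HF 9. Myh7 averaged -6.10 ± 0.89 in HFT and -5.71 ± 2.18 in HF, a difference of -0.39 (SE 0.78), and 0.34 without HF 9. For Acta1 and Myh7 the sign turned only when HF 9 was left out, among the animals left out in turn. That of Tnnc2 also turned without HF 35 (0.62) and without each of 5 HFT animals (0.066 to 0.32), and its interval reaches 3 log2 units either way.

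The interval was narrower for the genes that varied less. Tnnt3 averaged -1.20 ± 0.22 in HFT and -1.34 ± 0.30 in HF, a difference of 0.14 (SE 0.13, 95% interval -0.14 to 0.41). Mylpf averaged -4.85 ± 0.34 in HFT and -4.93 ± 0.27 in HF, a difference of 0.08 (SE 0.15, 95% interval -0.23 to 0.40). Mb differed by -0.01 (SE 0.24, 95% interval -0.51 to 0.49). Actn3 differed by 0.16 (SE 0.37) and Atp2a1 by -0.06 (SE 0.37). The smallest unadjusted p among the 8 was 0.309, for Tnnt3 (limma), and 6 of 8 HFT animals lay above the HF mean of that gene.

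The 16 arrays filled 4 slides, with the 2 HFT animals of a slide on its positions 3 and 4 and the 2 HF animals on 1 and 2, so position and group cannot be told apart. Within the slides, HFT minus HF of Acta1 was -3.84, 0.59, 0.93 and -0.97. That of Tnnc2 was -1.85, 3.24, 1.69 and -3.30, and that of Tnnt3 was -0.13, 0.28, 0.21 and 0.18. Each of the 8 genes took both signs over the 4 slides. The fit with the slide as a block gave the same differences, since every slide held both groups equally, and again called 0 probes.

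The arrays high for another tissue fell on both groups, 4 of HFT and 3 of HF. Without the 6 arrays that held epididymal or urothelial signal, the difference was -1.40 for Acta1 and -1.41 for Tnnc2, with HF 9 still among the HF animals. Without HF 9 as well, in an alternative added after the values were seen, the 4 HFT and 5 HF animals left differed by -0.10 in Acta1, -0.05 in Tnnc2 and 0.14 in Myh7. Actn3 then differed by 0.35 and Atp2a1 by -0.34. The limma adjusted p of the 8 genes ran from 0.918 to 0.981.

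Of the related genes, 0 passed the adjusted threshold in HFT against HF in the fast list (10 measured), the slow list (7), the other skeletal muscle list (16) or the smooth muscle list (9). The unadjusted threshold was passed by 2.36% of all probes. In these 4 lists only 1 of the 7 slow genes and 1 of the 16 other skeletal muscle genes passed it. They were the slow troponin Tnnt1, which differed by 0.65 (SE 0.30), and Mybph, a myosin-binding protein, which differed by 0.41 (SE 0.15). Tnnt1 had 2 probes, and only the one of higher mean signal was read. All 9 smooth muscle genes lay below 0, with a median difference of -0.59. HF 9, the array high for smooth muscle genes, belongs to HF, and its part in these differences was not tested. The medians were -0.032 for the fast list, -0.038 for the slow list and -0.24 for the other skeletal muscle list, against -0.016 over all probes.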

How the data were processed

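Gene expression was measured in 16 samples of epididymal fat, 8 HFT and 8 HF, on 1-colour Agilent arrays. The deposited spot intensities are those of Agilent Feature Extraction 10.7.3.1, which subtracted the background and detrended each array, per the file headers, which name no scaling between arrays. The marks for a spot well above background, saturated or far from its replicates are also Feature Extraction's, per the file headers. A deposited table of log2 values, whose scaling the sources used here do not give, served as an alternative; its column medians were 7.33 to 7.36 and each column correlated best with its own array (r of 0.998 or more).

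Log2 intensities were taken minus each array's 75th percentile over non-control spots. Spots marked as outliers were left out and the 2 spots of a probe averaged. A probe counted as well above background on an array where a share of at least 0.5 of its spots were. Of 62976 spots, 4259 were controls. Probes were named by RefSeq accession without version (assembly GRCr8), which named 18005 of 30367 probes; Mylpf stands there as a synonym of Myl11. No probe coordinates are given. Probe sequences were not used here.

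HFT was compared with HF by limma 3.58.1 in R 4.3.3 (lmFit and eBayes, Benjamini-Hochberg over 21808 probes, threshold 0.05), a fit first tested on simulated data. Correlations used all 362880 permutations of the 9 arrays. The tissue lists, the genes and the rule for naming others were chosen with earlier results of these data known. That rule took the 10 genes, list genes a result turns on and the 8 closest in pattern outside the lists. The closest partner of each single gene was added after the values were seen. Alternatives were quantile and normexp normalization, the deposited table, filters, spot marks, slide, array weights and leaving out arrays.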

Additional observations from a re-analysis of the deposited data

Results flagged for a closer look

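Among the 20 groups tested (10 genes in HFT and in HF), 3 held 1 animal whose distance from its nearest neighbour took up more of the group's range than Dixon's 95% critical value for 8 samples, where chance gives about 1 group in 20. In HF, Acta1 read 3.67 on HF 9, and that gap was 0.77 of the range. In HF, Myh7 read -0.65 on HF 9, with a gap of 0.66. In HF, Mb read 0.38 on HF 35, with a gap of 0.54. HF 9 was the array high for smooth muscle genes and HF 35 one of those high for urothelial genes. On the other urothelial arrays Mb lay within the range of the 9, at -0.66 on HFT 22 and -0.89 on HFT 24. HF 35 also had the highest score of thermogenic fat genes (8 measured, Ucp1 among them) of all 16 arrays, at 1.80. The part of those tissues in the 3 values was not tested.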

How the results depend on the processing

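The count of probes past the adjusted threshold in HFT against HF was 0 in every setting run, and 0 to 0 when each animal was left out in turn; the limma count at an unadjusted p under 0.05 ran from 426 (probes well above background on all 16 arrays) to 1206 (without the 6 arrays that held epididymal or urothelial signal), against 515. Of 254 signed differences recomputed under an alternative, 207 kept their sign and 47 changed it, none past a threshold; the median over the 8 genes changed it in 10 of 26 (0.080 with array weights) and the fast minus slow difference in 6 of 23. Normexp correction turned Mylpf to -0.063 and Actn3 to -0.10, and the deposited table turned Mb to 0.013. Array weights gave 0.0071 for Myh7, 0.16 for Tnnc2 and 0.036 for Mb. Without the epididymal and urothelial arrays Actn3 was -0.0081 and Mb 0.30, and without HF 9 as well, a setting added after the values were seen, Myh7 was 0.14 and Mb 0.20. With each animal left out, the differences ran from -1.03 to 0.11 for Acta1, -0.60 to 0.34 for Myh7, -0.79 to 0.79 for Tnnc2, -0.021 to 0.14 for Mylpf, 0.08 to 0.22 for Tnnt3, 0.03 to 0.39 for Actn3, -0.23 to 0.16 for Atp2a1 and -0.10 to 0.17 for Mb. The median over the 8 genes ran from -0.14 to 0.14 and the fast minus slow difference from -0.05 to 0.22. The number of correlated pairs within the 9 arrays was 15 of 45 with normexp correction (22 at an unadjusted p under 0.05), against 0 of 45; with quantile normalization it was 0 of 45 and among genes well above background on at least 12 arrays 0 of 21, with 2 at an unadjusted p under 0.05 in each, and the cause was not tested. The mean over several probes of a gene was not run, since each gene had 1 probe. No paired analysis was possible because the HFT and HF animals share no replicate numbers. Signal near background limits Myh7, Actn3 and Atp2a1 in some animals and leaves Myh4 and Myh1 without a usable comparison.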
